A study of Mus musculus with 16 samples.

Results

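Transcripts of 10 genes that form the core loops of the circadian clock were examined in the cerebral cortex of wild-type mice. They were *Arntl*, *Clock*, *Npas2*, *Per1*, *Per2*, *Per3*, *Cry1*, *Cry2*, *Nr1d1* and *Nr1d2*, taken by their gene names from the 55487 genes in the deposited table, and 10 of the 10 were found. The mice were 2-month-old C57Bl6 males of WT genotype. They were given i.p. LPS at 2 mg/kg, a bacterial endotoxin that causes systemic inflammation, or PBS as the vehicle, in 2 injections on consecutive days at ZT1, 1 hour after lights-on, or at ZT13, 1 hour after lights-off. Cortex was collected on the third day, 24 hours after the last injection and at the same time of day (TOD) as the injections. By the study's methods mice were anesthetized with pentobarbital and perfused before dissection, and some mice whose tissue was kept for RNA had also received the tracer sodium fluorescein. Which of these 16 had received it is not given in the sources used here. Each time had 3 mice given PBS and 5 given LPS, 16 in all, and each mouse gave 1 total RNA library depleted of ribosomal RNA. The question asked of these genes was whether their transcripts differed between the 2 times in PBS-treated mice, whether LPS exposure moved them, and whether the LPS response depended on TOD.

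The clock is a feedback loop of transcription that runs in almost every cell. BMAL1, the product of *Arntl*, pairs with CLOCK or with its relative NPAS2 and activates genes that hold an E-box in their regulatory DNA, among them the *Per*, *Cry* and *Nr1d* genes. PER and CRY proteins then repress that pair of activators, and REV-ERBα and REV-ERBβ, the products of *Nr1d1* and *Nr1d2*, repress *Arntl* through a response element in its promoter, so that *Arntl* and its repressors peak at roughly opposite times of day. In the cortex this loop runs in neurons, glia and vessel cells under the timing of the suprachiasmatic nucleus, and its genes have been studied as regulators of inflammatory responses.

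The promoters of the 3 members that passed the test between the PBS groups are shown with the short motifs found in them, together with that of *Per1*. The sequences are RefSeq windows on GRCm38.p6 that run from 250 bases before an annotated start site to 50 bases after it, and windows were found for 9 of the 10 members, the exception being *Per2*. Both strands were searched for AGGTCA, the hexamer bound by REV-ERB receptors, and for CACGTG, the canonical E-box. TTATGTA, the core of the D-box bound by DBP, TEF, HLF and NFIL3, was added after the sequences had been seen. The capitals mark these letters. The *Arntl* window is chr7:113207261-113207560 on the plus strand, the second of its 2 start sites, with AGGTCA beginning at position 32 after the start. The *Nr1d2* window is chr14:18239057-18239356 on the minus strand, with AGGTCA beginning at position -77. The *Per3* window is chr4:151044616-151044915 on the minus strand, with TTATGTA at positions -205 and -158. The *Per1* window, chr11:69098699-69098998 on the plus strand, the first of its 2, is shown as the example of a repressor gene with an E-box, which begins at position -166. This window also holds AGGTCA on its other strand, where the capitals read TGACCT, at position -137. The second *Per1* window held none of these motifs.
Arntl: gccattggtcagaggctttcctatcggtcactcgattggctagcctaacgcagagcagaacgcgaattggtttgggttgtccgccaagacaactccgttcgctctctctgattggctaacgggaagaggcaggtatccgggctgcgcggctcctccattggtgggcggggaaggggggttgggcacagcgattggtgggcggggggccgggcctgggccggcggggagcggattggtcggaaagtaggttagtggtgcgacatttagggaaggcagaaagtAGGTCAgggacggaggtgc
Nr1d2: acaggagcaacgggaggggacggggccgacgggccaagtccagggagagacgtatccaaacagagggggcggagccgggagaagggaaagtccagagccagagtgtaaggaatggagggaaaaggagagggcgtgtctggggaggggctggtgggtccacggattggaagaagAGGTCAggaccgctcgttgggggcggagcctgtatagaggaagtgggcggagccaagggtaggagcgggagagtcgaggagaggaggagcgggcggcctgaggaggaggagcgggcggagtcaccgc
Per3: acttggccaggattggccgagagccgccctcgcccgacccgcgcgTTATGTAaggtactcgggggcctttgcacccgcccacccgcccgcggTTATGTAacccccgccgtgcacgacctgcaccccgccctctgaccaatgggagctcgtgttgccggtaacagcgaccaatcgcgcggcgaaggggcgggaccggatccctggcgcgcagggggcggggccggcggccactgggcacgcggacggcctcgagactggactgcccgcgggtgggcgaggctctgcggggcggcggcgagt
Per1: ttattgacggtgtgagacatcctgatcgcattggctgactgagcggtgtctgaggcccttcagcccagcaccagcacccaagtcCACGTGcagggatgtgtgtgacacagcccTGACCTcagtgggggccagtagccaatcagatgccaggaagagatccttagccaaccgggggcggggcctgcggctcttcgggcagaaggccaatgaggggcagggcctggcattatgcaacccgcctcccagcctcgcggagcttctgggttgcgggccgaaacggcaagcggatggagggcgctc
Of all 32851 windows of this length, 16.3% held AGGTCA, 7.15% held CACGTG and 2.63% held TTATGTA. Among the other members, *Cry1* held CACGTG at position -60 and *Clock* held AGGTCA at position -119 of 1 of its 3 windows. No element of these kinds was found in the windows of *Npas2*, *Cry2* or *Nr1d1*, which says only that these letters are not in these windows.

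The values are CPM, a gene's reads per 1000000 reads assigned to genes in that sample. Samples held 20251840 to 29112758 reads on genes, and the member with the fewest reads in any sample was *Cry1* with 321, for which counting error alone is 5.58%. All 10 members passed the filter on low values. Samples were grouped by their titles, since the labels' treatment entry disagreed with the title in 12 of the 16. The astrocyte gene *Gfap* and the acute phase gene *Lcn2* followed the titles, with *Gfap* ranging from 111 to 123 CPM under PBS titles and from 572 to 1134 CPM under LPS titles. Summed markers of neurons were at 5135 to 6068 CPM over the 16 samples. Log2(CPM + 0.5) was compared with limma, and a gene was called a DEG at a Benjamini-Hochberg adjusted p under 0.05 over the 18859 genes tested. In bulk tissue, fewer cells that express a gene and less RNA per cell cannot be told apart, and the p-values measure the spread between mice.

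Per kilobase of exon, and averaged over the 16 samples, *Nr1d1* had the highest level of the 10, at 44.1 CPM per kb, followed by *Per1* at 32.2 and *Cry2* at 26.6. *Nr1d2*, *Npas2* and *Per2* formed a middle group at 13.8, 13.5 and 11.9 CPM per kb. *Per3* was at 8.77, *Clock* at 7.07, *Cry1* at 5.72 and *Arntl* at 4.26 CPM per kb, the lowest of the 10. Every pair of neighbours in this order had overlapping ranges over the 16 samples except *Cry2* and *Nr1d2*, whose ranges were 24.0 to 29.1 and 10.8 to 16.2 CPM per kb. *Nr1d1* shares 263 exon bases, 8.55% of its exon length, with *Thra* on the opposite strand, which was at 602 to 691 CPM, and whether the reads were counted by strand is not given in the sources used here.

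**Figure D1:**
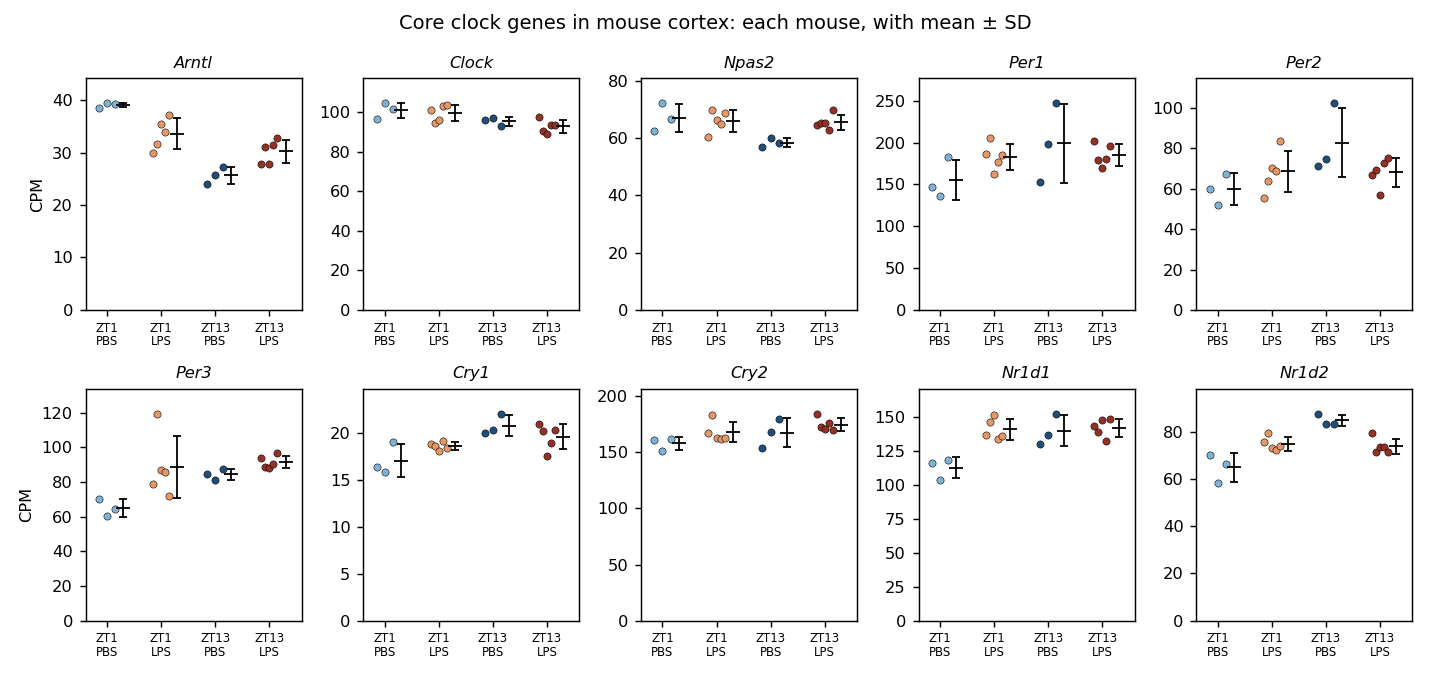
CPM (y axis, from 0) of each clock gene in each mouse of the 4 groups (x axis), with 1 point per mouse and the group mean ± SD beside the points. *Arntl* falls from 38.6 to 39.4 CPM in ZT1 PBS to 24.0 to 27.3 CPM in ZT13 PBS, and the LPS groups lie between.

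Without LPS, the activator gene *Arntl* was lower at ZT13 than at ZT1, and *Per3* and *Nr1d2*, from the repressor arm, were higher. These 3 of 10 members were DEGs between ZT13 PBS and ZT1 PBS. Over all 18859 genes 98 were DEGs, 0.520%. The 2 groups did not overlap for 7 of the 10 members, 2 lower and 5 higher at ZT13, where 18.7% of all genes did not overlap in either direction. The median of the absolute log2 fold changes was 0.33 for the members and 0.084 for all genes. With 3 mice against 3 the exact permutation test cannot go below p = 0.1. Groups that do not overlap always give that value, so the test adds nothing for these 7 members.

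Among the activators, *Arntl* was at 38.6, 39.4 and 39.3 CPM in the 3 ZT1 PBS mice and at 24.0, 25.8 and 27.3 CPM in the 3 ZT13 PBS mice. Every ZT13 value lay below every ZT1 value, and the ZT1 mice differed from each other by less than 1 CPM. Its log2 fold change was -0.60 (standard error, SE, 0.06, adjusted p = 0.0034 by limma), a level 0.66 times that at ZT1. *Npas2*, the partner that can stand in for CLOCK in the forebrain, was at 62.4, 72.2 and 66.7 CPM at ZT1 and at 56.9, 60.2 and 58.3 CPM at ZT13. These groups did not overlap either, with a log2 fold change of -0.20 that did not pass (SE 0.06, adjusted p = 0.18 by limma). *Clock* was at 96.8 to 104.6 CPM at ZT1 and 93.0 to 97.2 CPM at ZT13, groups that overlapped.

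Of the period genes, which encode the rhythmic partners of the CRY repressors, *Per3* had the smallest spread. It was at 70.4, 60.3 and 64.4 CPM in ZT1 PBS and at 84.5, 81.3 and 87.5 CPM in ZT13 PBS, with every ZT13 value the higher, and its log2 fold change was 0.38 (SE 0.06, adjusted p = 0.031 by limma). *Per2* was at 60.0, 52.0 and 67.5 CPM and at 71.5, 74.8 and 102.4 CPM. It had the largest positive log2 fold change of the members, 0.46, but 1 ZT13 mouse stood well above the other 2, and the standard error of 0.13 left it at a limma adjusted p of 0.19. *Per1* was at 146, 137 and 182 CPM at ZT1 and 153, 198 and 247 CPM at ZT13, so that its groups overlapped and its log2 fold change of 0.34 had a 95% interval of -0.01 to 0.69.

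The *Nr1d* genes encode the repressors of *Arntl*, and the *Cry* genes encode the partners of the PER proteins. *Nr1d2* was at 70.2, 58.3 and 66.5 CPM at ZT1 and at 87.6, 83.4 and 83.5 CPM at ZT13, with no overlap and a log2 fold change of 0.39 (SE 0.06, adjusted p = 0.041 by limma). For *Nr1d1*, at 116, 104 and 118 CPM against 130, 137 and 152 CPM, the groups also did not overlap, but its log2 fold change of 0.31 had a limma adjusted p of 0.087. *Cry1* was at 16.4, 15.9 and 19.1 CPM against 20.1, 20.4 and 22.1 CPM (log2 fold change 0.28, limma adjusted p = 0.19). *Cry2*, the cryptochrome with the higher level in cortex, was at 151 to 162 CPM against 154 to 180 CPM, with a log2 fold change of 0.08 and groups that overlapped. The *Arntl* call held in 6 of the 6 fits lacking 1 mouse. *Per3* stayed a DEG in 1 of these 6, the fit without ZT1 PBS replicate 1 (adjusted p = 0.028 to 0.14), and *Nr1d2* in 0 (adjusted p = 0.052 to 0.16), so each of those calls needed nearly every mouse. With no filter on low values, and likewise with no intensity trend, 0 of the 10 were DEGs, and the adjusted p of *Arntl* reached 0.090 by limma.

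LPS exposure at ZT1 raised *Per3*, *Nr1d1* and *Nr1d2* and lowered no member past the test, 3 of 10 members against 3061 DEGs among all genes, 16.2%. Against that background the count is not read as a result about the members as a group. With median-of-ratios factors and with quantile normalization, 1 member rose, *Nr1d1*, and 1 fell, *Arntl*. *Nr1d1* was at 116, 104 and 118 CPM in ZT1 PBS and at 137, 146, 151, 134 and 136 CPM in ZT1 LPS. All 5 LPS values lay above all 3 PBS values, with a log2 fold change of 0.32 (SE 0.06, adjusted p = 0.0028 by limma, exact permutation p = 0.018, the smallest that 5 against 3 allow). *Nr1d2* was at 75.9, 79.3, 73.0, 72.2 and 74.2 CPM in ZT1 LPS, also above every PBS mouse, with a log2 fold change of 0.21 (SE 0.06, adjusted p = 0.038 by limma).

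*Per3* was at 79.0, 119.2, 87.0, 85.7 and 72.1 CPM in ZT1 LPS, against 60.3 to 70.4 CPM in ZT1 PBS. Its log2 fold change was 0.42 (SE 0.13, adjusted p = 0.044 by limma), and replicate 2 was far above the rest. Without that mouse the log2 fold change was 0.31 and the limma adjusted p was 0.012. The same mouse had the highest *Per1*, *Npas2*, *Cry2* and *Nr1d2* values of its group, so it held the top value for 5 of the 10 members. That count was not particular to it. In their own groups, ZT1 PBS replicate 3 and ZT13 LPS replicates 1 and 5 also held 5 top values each, and ZT13 PBS replicate 3 held 7. In ZT1 LPS replicate 2 the sum of 13 glucocorticoid-induced genes, 1027 CPM, was also the highest of its group, where the other 4 mice were at 695 to 745 CPM. Its summed markers of neutrophils (12.1 against 19.6 to 71.4 CPM) and of endothelium (208 against 224 to 264 CPM) were the lowest. Its microglial *Csf1r*, *Cx3cr1* and *Tmem119* were also the lowest of the group, at 87.6, 32.7 and 14.8 CPM. The part of these in its clock gene values was not tested.

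*Arntl* was at 29.9, 31.6, 35.5, 34.0 and 37.2 CPM in ZT1 LPS, below the 38.6 to 39.4 CPM of ZT1 PBS in every mouse. Its log2 fold change of -0.22 had a limma adjusted p of 0.055 (standard error 0.07, exact permutation p = 0.054), which just missed the threshold, and it passed in 6 of 10 alternatives that used all mice. *Per1* was at 186, 205, 162, 176 and 185 CPM in ZT1 LPS, with a log2 fold change of 0.24 (limma adjusted p = 0.093) and groups that overlapped. *Per2* at 0.19 and *Cry1* at 0.13 had limma adjusted p-values of 0.30 and 0.25. *Clock* and *Npas2* had log2 fold changes of -0.02 each, with 95% intervals of -0.12 to 0.08 and -0.16 to 0.11. Groups did not overlap for 4 of the 10 members, *Arntl* lower and *Per3*, *Nr1d1* and *Nr1d2* higher, where 24.3% of all genes did not. The *Nr1d1* call held in 8 of 8 fits lacking 1 mouse. *Per3* held in 3, those without ZT1 LPS replicate 1, 2 or 5, and *Nr1d2* in 2, those without ZT1 PBS replicate 1 or ZT1 LPS replicate 5.

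After LPS exposure at ZT13, *Arntl* and *Npas2* rose and *Nr1d2* fell, 3 of 10 members, while 5401 of all genes were DEGs, 28.6%, so the members were called at about the background rate. *Arntl* was at 24.0, 25.8 and 27.3 CPM in ZT13 PBS and at 27.9, 31.1, 27.8, 31.5 and 32.8 CPM in ZT13 LPS. The groups did not overlap, by a margin of under 1 CPM, and the log2 fold change was 0.23 (SE 0.07, adjusted p = 0.021 by limma, exact permutation p = 0.036). *Npas2* was at 64.8, 65.1, 65.2, 62.8 and 69.9 CPM in ZT13 LPS, above the 56.9 to 60.2 CPM of ZT13 PBS, with a log2 fold change of 0.16 (SE 0.04, adjusted p = 0.012 by limma). *Nr1d2* was at 79.3, 71.6, 73.8, 73.7 and 71.4 CPM in ZT13 LPS, below the 83.4 to 87.6 CPM of ZT13 PBS, with a log2 fold change of -0.20 (SE 0.04, adjusted p = 0.0033 by limma).

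*Nr1d1*, the paralog of *Nr1d2*, was at 143, 139, 147, 132 and 149 CPM in ZT13 LPS against 130, 137 and 152 CPM in ZT13 PBS. Its groups overlapped and its log2 fold change of 0.02 became -0.03 with median-of-ratios factors, so no direction is given for it. *Per2* was at 67.0, 69.4, 56.7, 72.9 and 75.2 CPM against 71.5 to 102.4 CPM, with a log2 fold change of -0.27 (limma adjusted p = 0.081). *Per3* was at 93.9, 88.7, 87.8, 90.3 and 96.6 CPM, above the 81.3 to 87.5 CPM of ZT13 PBS in every mouse, with a log2 fold change of 0.11 (limma adjusted p = 0.062). *Per1* was at 170 to 201 CPM and within the range of its 3 PBS mice, *Cry1* at 17.6 to 21.0 CPM and *Cry2* at 170 to 184 CPM, and none of these passed. Groups did not overlap for 4 of 10 members, *Arntl*, *Npas2* and *Per3* higher and *Nr1d2* lower, where 31.2% of all genes did not.

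The scaling of the libraries bears on the ZT13 response. The median log2 fold change of all genes was 0.05 as deposited, -0.0039 with median-of-ratios factors and -0.06 after quantile normalization. The *Arntl* log2 fold change was then 0.17 and 0.15, and it was no longer a DEG (limma adjusted p = 0.013 to 0.12 over the 10 alternatives that used all mice). *Per2* was called lower under both, so that 0 members rose and 2 fell with median-of-ratios factors, and 1 rose and 2 fell with quantile normalization. By contrast, *Nr1d2* was a DEG in 10 of 10 alternatives that used all mice and in 8 of 8 fits lacking 1 mouse. *Npas2* was a DEG in 9 of 10 alternatives, the exception being median-of-ratios factors. *Arntl* was a DEG in 5 of 10, since it was also lost with no filter, with no intensity trend and with the replicate number as a block, and it was lost without ZT13 PBS replicate 1 or 2, while *Npas2* was lost without ZT13 PBS replicate 1. *Per1* turned from -0.08 to 0.09 without ZT13 PBS replicate 3, the mouse at 247 CPM. Without ZT13 PBS replicate 1, the mouse at 153 CPM, *Per1* was instead called lower (-0.26, adjusted p = 0.036 by limma). *Per2* was also called lower without that mouse, and without ZT13 LPS replicate 5.

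**Figure D2:**
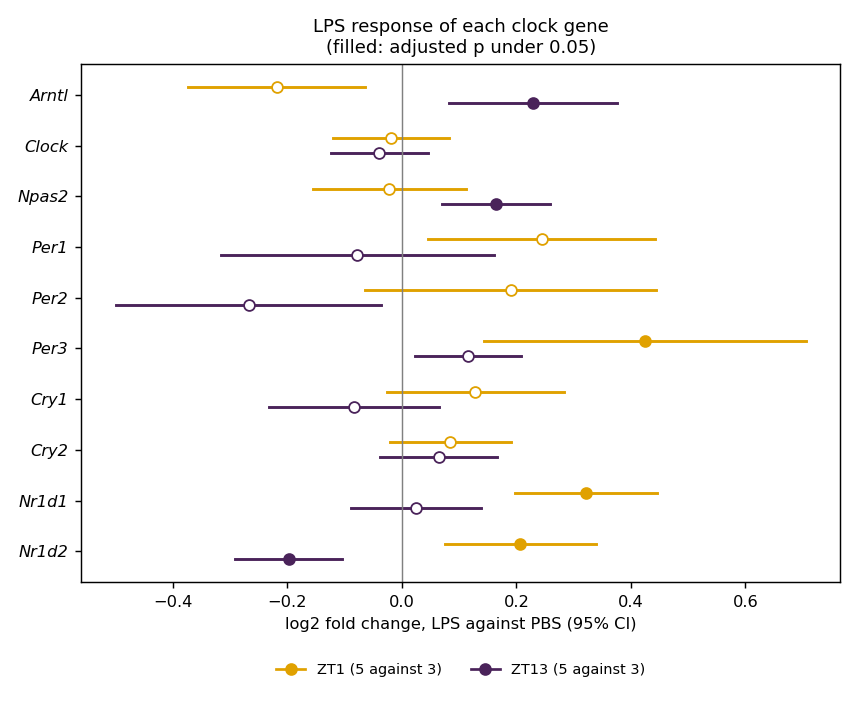
Log2 fold change of LPS against PBS (x axis, with 95% confidence intervals from limma) for each clock gene (y axis) at ZT1 and at ZT13, 5 mice against 3 at each time, with filled points for adjusted p under 0.05. *Nr1d2* is at 0.21 at ZT1 and -0.20 at ZT13, and *Arntl* at -0.22 and 0.23.

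Between the 2 times in LPS-treated mice, 0 of 10 members were DEGs by limma, where 4 of all genes were, 0.0212%. An unadjusted p under 0.05 was found for 2 members, *Arntl* and *Clock*, against 10.6% of all genes, and by the exact permutation test for *Clock* alone (log2 fold change -0.10, exact p = 0.040). No member had groups that did not overlap, where 1.96% of all genes had. *Arntl* was at 29.9 to 37.2 CPM at ZT1 and 27.8 to 32.8 CPM at ZT13, with a log2 fold change of -0.15 (SE 0.07, adjusted p = 0.45 by limma). *Nr1d2* was at 72.2 to 79.3 CPM at ZT1 and 71.4 to 79.3 CPM at ZT13, with a log2 fold change of -0.02 whose 95% interval ran from -0.11 to 0.07. For *Nr1d1* the interval ran from -0.08 to 0.11 and for *Npas2* from -0.11 to 0.09, so differences of the size seen in PBS-treated mice, 0.31 and -0.20, lay outside them. For *Per2* and *Per3* the intervals of -0.21 to 0.21 and -0.15 to 0.28 were wider, and the PBS values of 0.46 and 0.38 also lay outside. The PBS values have errors of their own, and for *Npas2*, *Per2* and *Per3* the PBS and LPS intervals overlapped. Whether a difference changed with LPS is the question of the interaction test below. For *Per1*, *Cry1* and *Cry2* the log2 fold changes were 0.02, 0.07 and 0.06.

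The absolute time difference was smaller in LPS-treated than in PBS-treated mice for 9 of the 10 members, the exception being *Clock*, and for 56.9% of all genes. The median absolute log2 fold change of the members went from 0.33 in PBS-treated to 0.040 in LPS-treated mice, while that of all genes went from 0.084 to 0.066. These are 2 times of day, so the values give neither the phase nor the amplitude of a rhythm.

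**Figure D3:**
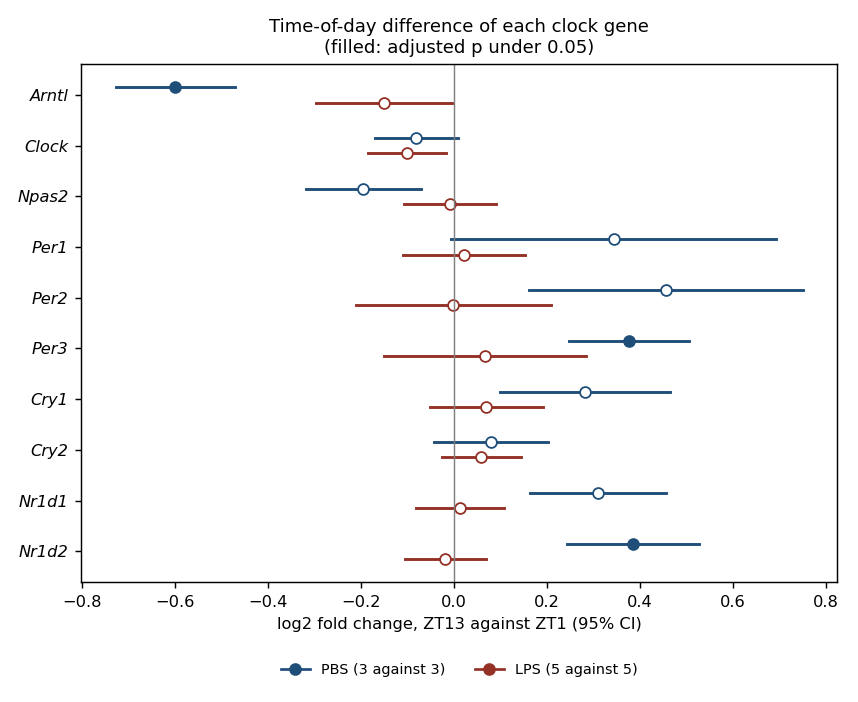
Log2 fold change of ZT13 against ZT1 (x axis, with 95% confidence intervals from limma) for each clock gene (y axis) in PBS-treated mice, 3 against 3, and in LPS-treated mice, 5 against 5, with filled points for adjusted p under 0.05. The 3 filled points, *Arntl* at -0.60, *Per3* at 0.38 and *Nr1d2* at 0.39, are all PBS values.

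Whether the time difference itself changed with LPS was tested as the TOD × treatment interaction on all 16 mice. *Nr1d2* was the 1 member of 10 that passed, where 30 of all genes did, 0.159%. Its LPS response was lower at ZT13 than at ZT1 by a log2 difference of -0.40 (SE 0.07, adjusted p = 0.036 by limma). *Arntl* had an interaction of 0.45 in the opposite direction (SE 0.10, adjusted p = 0.10 by limma), and *Nr1d1* one of -0.30 (SE 0.08, adjusted p = 0.20 by limma). The values were -0.46 for *Per2*, -0.31 for *Per3*, -0.32 for *Per1*, -0.21 for *Cry1* and 0.19 for *Npas2*, and none of them passed. *Clock* and *Cry2* were at -0.02 each. An unadjusted p under 0.05 was found for 7 of the 10 members and for 9.25% of all genes. The *Nr1d2* call held in 5 of the 16 fits lacking 1 mouse, with adjusted p-values of 0.022 to 0.12 and log2 differences of -0.46 to -0.33. The 5 were those without ZT1 PBS replicate 1, ZT1 LPS replicate 1, 2 or 4, or ZT13 LPS replicate 1. With no filter or no intensity trend it was not a DEG (adjusted p of up to 0.12 by limma).

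Within a sample, the ratio of *Arntl* to a gene of the repressor arm is not changed by a scaling that applies 1 factor to each library. The log2 ratio of *Arntl* to *Nr1d2* was -0.86 to -0.57 in ZT1 PBS and -1.87 to -1.61 in ZT13 PBS. It was -1.35 to -0.996 in ZT1 LPS and -1.51 to -1.12 in ZT13 LPS, so the 10 LPS-treated mice lay between the PBS groups and overlapped with neither. The log2 ratio of *Arntl* to *Nr1d1* was -1.59 to -1.39 and -2.48 to -2.41 in the PBS groups and -2.21 to -1.87 and -2.41 to -2.07 in the LPS groups at ZT1 and ZT13. For *Arntl* to *Per3* the PBS groups were at -0.87 to -0.61 and -1.82 to -1.66. The LPS groups were at -1.92 to -0.95 and -1.75 to -1.51, with the lowest value in ZT1 LPS replicate 2. These ratios were formed from the genes tested above and are given with no test.

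**Figure D4:**
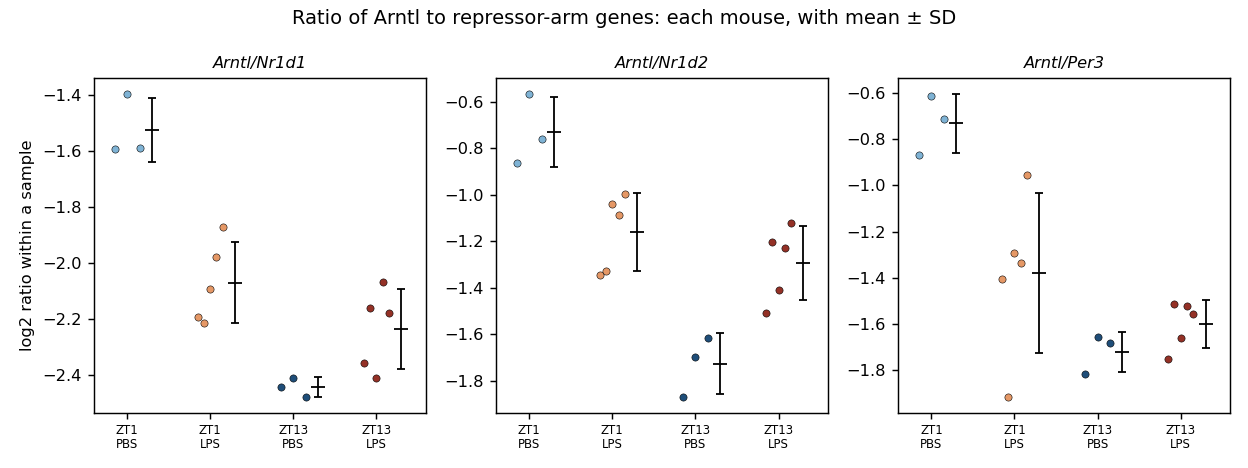
Log2 ratio of *Arntl* to *Nr1d1*, *Nr1d2* and *Per3* within each sample (y axis, 1 point per mouse, with mean ± SD) in the 4 groups (x axis). For *Nr1d2* the group means are -0.73 in ZT1 PBS, -1.16 in ZT1 LPS, -1.73 in ZT13 PBS and -1.29 in ZT13 LPS.

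Genes driven by the clock proteins were examined by lists. Where 0.520% of all genes were DEGs, 4 of 10 output factors rose at ZT13 PBS against ZT1 PBS and 0 fell. They were *Ciart*, a repressor of the BMAL1 and CLOCK pair (log2 fold change 1.45), and the PAR bZIP factors *Dbp* (1.10), *Tef* (0.26) and *Hlf* (0.20), which act at the D-box. The median log2 fold change of the 10 was 0.16, against -0.0004 for all genes. *Dbp* went from 37.3, 47.6 and 55.5 CPM, in ascending order, at ZT1 PBS to 91.5, 98.0 and 110.5 CPM at ZT13 PBS. *Nfil3*, the repressor at the same element, was at 7.89 to 11.7 CPM and 4.59 to 8.78 CPM and did not pass.

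After LPS at ZT1, 2 output factors rose, *Hlf* (0.24) and *Bhlhe40* (0.33), and at ZT13 *Dbp* (-0.57) and *Ciart* (-0.62) fell, while 5 were lower at ZT13 under median-of-ratios factors. Between the times in LPS-treated mice 0 of 10 were DEGs by limma and 4 had an unadjusted p under 0.05, and *Dbp* was at 50.1 to 63.0 CPM at ZT1 and 61.5 to 71.6 CPM at ZT13. The interaction passed for *Dbp* (-0.91, SE 0.14, adjusted p = 0.011 by limma) and for *Ciart* (-1.14, SE 0.21, adjusted p = 0.030 by limma). Among 30 regulators of clock proteins (kinases, ubiquitin ligases, deubiquitinases and cofactors), 1 rose at ZT13 PBS and 0 fell. It was *Usp2*, a clock-controlled deubiquitinase, at 56.5 to 61.9 CPM and 87.2 to 88.6 CPM (0.57, SE 0.04, adjusted p = 8.3e-04 by limma). LPS raised 5 and lowered 2 of these at ZT1, and raised 4 and lowered 2 at ZT13, where 16.2% and 28.6% of all genes were DEGs. *Timeless* (0.53 and 0.99) and *Ddb1* (0.14 and 0.12) were higher at both times, *Usp2* was higher at ZT1 (0.31), and *Gsk3b* (-0.12 at each) and *Btrc* (-0.16 and -0.14) were lower at both. With median-of-ratios factors 2 rose and 2 fell at ZT1, and 1 rose and 5 fell at ZT13. By limma 0 of the 30 passed between times in LPS-treated mice and 0 in the interaction, with 3 and 2 at an unadjusted p under 0.05. With median-of-ratios factors *Usp2* passed in the interaction (-0.40, adjusted p = 0.044 by limma, against -0.38 and 0.087 as deposited).

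**Figure D5:**
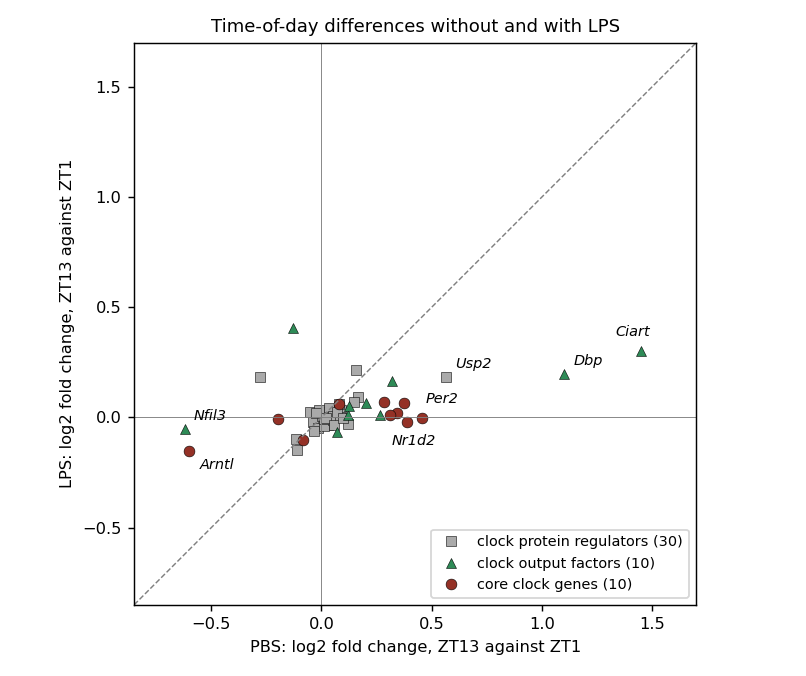
Log2 fold change of ZT13 against ZT1 in PBS-treated mice (x axis) and in LPS-treated mice (y axis) for the 10 core clock genes, 10 clock output factors and 30 clock protein regulators, with the dashed line where both are equal. *Ciart* (1.45) and *Dbp* (1.10) lie far to the right on the x axis and the core clock genes lie close to 0 on the y axis, *Arntl* at -0.15.

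Genes outside the loop also differed between some of the groups. Of 7 other genes with daily rhythms 0 were DEGs by limma between the PBS groups and 1 had an unadjusted p under 0.05, while 3 rose with LPS at ZT1 and 5 at ZT13, *Tspan4* by 0.81 and 0.80 and *Nampt* by 0.41 and 0.46 among them. Of 13 genes induced by glucocorticoids, hormones whose own daily rise comes near lights-off in mice, 6 rose at ZT13 PBS and 0 fell, with *Hif3a* at 2.00, *Plin4* at 1.33, *Sgk1* at 1.03, *Fkbp5* at 0.91, *Tsc22d3* at 0.86 and *Klf9* at 0.35. LPS raised 12 of the 13 at ZT1 and 8 at ZT13. Among all genes 0.520% were DEGs between the PBS groups, 16.2% with LPS at ZT1 and 28.6% with LPS at ZT13. At ZT1, 10 of the 13 rose with median-of-ratios factors and 9 with quantile normalization. At ZT13 each of these scalings called 8 higher and 1 lower, *Tsc22d3*. *Hif3a* was the 1 of the 13 that passed in the interaction (-1.50). Their summed level was 431 to 477 CPM in ZT1 PBS, 596 to 717 in ZT13 PBS, 695 to 1027 in ZT1 LPS and 774 to 952 in ZT13 LPS, with none of the 13 listed at 0 throughout. Their part in the clock gene differences was not tested.

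Cell type markers moved as well, where 0.520% of all genes were DEGs between the PBS groups, 16.2% with LPS at ZT1 and 28.6% at ZT13. Summed markers of endothelium (8 of 8 found) were at 161 to 165 CPM in ZT1 PBS and 109 to 126 CPM in ZT13 PBS. In ZT1 and ZT13 LPS they were at 208 to 264 and 258 to 285 CPM. Between the PBS groups 3 of 8 passed as lower at ZT13, *Cldn5*, *Kdr* and *Flt1*, and 0 as higher. *Ly6c1* went the other way without passing, from a mean of 11.6 CPM in ZT1 PBS to 14.7 CPM in ZT13 PBS. LPS raised 5 of the 8 at ZT1 and 8 at ZT13. At ZT1 it lowered 1, *Flt1*, from a mean of 61.5 to 49.1 CPM. The interaction passed for 5 of the 8, *Cldn5*, *Kdr*, *Cdh5*, *Pecam1* and *Flt1*, and for 2 with quantile normalization. Summed microglial markers (7 of 7) were at 183 to 206 CPM in PBS-treated and 234 to 395 CPM in LPS-treated mice, and those of neutrophils (6 of 6) at 3.42 to 4.54 and 12.1 to 121 CPM. Of the 7 microglial markers, LPS raised 6 and lowered 1, *P2ry12*, at each time. Markers of neurons (8 of 8) were at 5625 to 6068 CPM in PBS-treated and 5135 to 5622 CPM in LPS-treated mice. Those of astrocytes (7 of 7) were at 5138 to 5579 and 5615 to 6458 CPM. LPS raised 4 of these 7 at each time and lowered *Slc1a2* at ZT13, from a mean of 4119 to 3758 CPM. The sum includes *Gfap*, whose mean went from 116 to 731 CPM at ZT1 and from 118 to 1013 CPM at ZT13. Oligodendrocyte, mural and erythrocyte markers were at 2264 to 3024, 121 to 164 and 6.16 to 35.8 CPM over all mice, and no marker was at 0 in all samples. The part of these cells in the clock gene differences was not tested.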

How the data were processed

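Cortex RNA from 16 mice was sequenced as total RNA libraries depleted of ribosomal RNA. The authors deposited 1 table of CPM per gene, scaled by library total. The submitters' processing notes name bcl2fastq, DRAGEN 4.0.3-8 and GRCm38. The table has 55774 lines, of which 287 repeat a gene and were removed. All sample columns were used. The members and lists were chosen with earlier results of these data known. The lowest values of a sample are steps of 1 read and gave its depth, but some values were fractions of a step, so counts were not recovered. Genes reaching 1 CPM in 3 or more samples were tested on log2(CPM + 0.5), which understates the change of low genes, with limma 3.58.1 (R 4.3.3), an intensity trend and Benjamini-Hochberg adjustment. Each pairwise comparison was fitted on its own 2 groups and the interaction on all 16 samples. Each member was also put to an exact two-sided permutation test of the group means. All 10 members are given in each comparison; from the lists, every gene called between the PBS groups or in the interaction is named, with up to 4 others by adjusted p, except that 1 result is not reported here. Exon lengths and overlaps come from GENCODE M21, and promoters from RefSeq. Alternatives were pseudocounts of 0.1 and 1, no filter, a filter at 5 CPM, quantile normalization, median-of-ratios factors, sample quality weights, 1 fit over all 16 samples, no intensity trend, a block on replicate number, and leaving out each mouse. The labels give no batch. The column name of ZT13 PBS replicate 1 ends in a different suffix from all other sample columns, and its meaning is not given in the sources used here. Python 3.11.15 with matplotlib 3.10.9 was used for the tables and figures.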

Additional observations from a re-analysis of the deposited data

Results flagged for a closer look

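The *Cry2* level of ZT1 LPS replicate 2, 183.3 CPM, stood apart from the other 4 mice of its group, which were at 162.1 to 167.7 CPM. Its gap to the next mouse was 0.739 of the range of the group, above Dixon's 95% critical value for 5 samples. It was the 1 case among 20 groups tested for the members, and chance marks about 1 group in 20. The *Nr1d2* response to LPS differed between the times, with an interaction of -0.4046 on the log2 scale (limma adjusted p = 0.036), from 0.21 at ZT1 to -0.20 at ZT13.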

How the results depend on the processing

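Over 10 alternatives that used all mice (9 for the interaction), the log2 fold changes of the members kept their direction and their side of the threshold in 450 of 490 cases, lost a call in 24, gained one in 12 and changed sign in 4. Over 480 cases that left out 1 mouse these numbers were 413, 36, 6 and 25. No value that changed sign had been called, and the largest of them was -0.08. The 4 were *Nr1d1* for LPS against PBS at ZT13 (-0.033, median-of-ratios factors) and between the LPS groups (-0.00048, median-of-ratios factors, and -0.013, sample quality weights), and the *Cry2* interaction (0.011, sample quality weights). With no filter, and likewise with no intensity trend, 0 members were called between the PBS groups, 1 for LPS at ZT1 and 0 in the interaction. Sample quality weights called 2 in the interaction. The cause of these shifts was not tested.

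Leaving out 1 mouse gave 1 to 2 members called between the PBS groups, 1 to 4 for LPS at ZT1, 2 to 4 at ZT13, 0 to 0 between the LPS groups and 0 to 1 in the interaction. The signs that turned there were those of *Clock* (-0.050 to 0.0058) and *Npas2* (-0.073 to 0.031) for LPS at ZT1, and of *Nr1d1* (-0.025 to 0.088) and *Per1* (-0.26 to 0.091) at ZT13. Between the LPS groups they were those of *Npas2* (-0.041 to 0.012), *Nr1d2* (-0.044 to 0.0017), *Per1* (-0.021 to 0.063), *Per2* (-0.073 to 0.074), *Per3* (-0.0021 to 0.18) and *Nr1d1* (-0.0053 to 0.039). In the interaction they were those of *Clock* (-0.045 to 0.010) and *Cry2* (-0.079 to 0.032).

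Over all genes, the 98 DEGs between the PBS groups became 65 with no filter, 158 at CPM of at least 5, 199 with quantile normalization, 43 in a single fit, 3 with no intensity trend and 57 with the block. LPS at ZT1 went from 3061 to 1605 with no filter. The 4 between the LPS groups became 122 in a single fit, 225 with sample quality weights, 1 with no filter and 0 with no intensity trend, and the 30 of the interaction became 12 with no filter, 11 with no intensity trend and 124 with weights. Leaving out 1 mouse gave 12 to 87, 1767 to 3758, 4329 to 5547, 0 to 345 and 7 to 104 in the order of the report. With the replicate number as a block, 2 members, *Arntl* and *Nr1d2*, were called in the interaction, and 3, 3, 3 and 0 in the pairwise comparisons. The deviations of same-numbered mice had correlations of r = -0.20 to 0.33. Between the LPS groups 1 of 5 pairs was over 0.1, and in each other pairwise comparison 0 were, so the numbers were not used as pairs.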

Other observations

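For 4 members, the genes with the most similar group means were looked up among all tested genes that are no members. The measure was the root mean square difference over the 4 group means of log2(CPM + 0.5), each centred on its own mean, and with only 4 points close matches arise among 18859 genes. For *Arntl* the closest were *Socs1* (0.015), an inhibitor of cytokine signalling, *Gm12963* (0.023), *Slc23a3* (0.029) and *Rmrp* (0.031), and its closest fellow member was *Npas2* (0.15). For *Per3* they were *Rnf2* (0.0043), *Faap24* (0.018), *Cables1* (0.020) and *Gm42811* (0.023), with *Nr1d1* (0.057) as the closest member. For *Per1* they were *Gm43047* (0.0075), *4930404I05Rik* (0.011), *Abra* (0.012) and *Htr2a* (0.012), a serotonin receptor gene, with *Cry1* (0.041) as the closest member. For *Nr1d1* they were *Adra2a* (0.010), an adrenergic receptor gene, *Prr16* (0.013), *Timp3* (0.013) and *Pdcd10* (0.016), with *Per1* (0.047) as the closest member.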
